A study of Mus musculus with 4 samples.

Results

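The 40 mitosis and spindle genes encode the cyclins, kinases, kinetochore proteins, motors and cleavage proteins that carry a cell through division. They were taken by name from a list of such genes, and all 40 were found among the 54532 genes of the count table. Dll1-positive cells of mouse mammary tumors were compared between tumors given targeted radiation and tumors left unirradiated, with 2 libraries in each group. The irradiated group, libraries irradiated 1 and irradiated 2, came from tumors given targeted radiation, and the unirradiated group from tumors given none. The series text names day 30 for the radiation, and the labels do not say whether that day is of radiation or of harvest. All libraries shared the rest of the model. The tumors were C57BL/6 MMTV-PyMT, in which the MMTV promoter drives the polyoma middle T antigen in mammary epithelium, grown from PyMT cells injected into the mammary fat pad, and the cells were sorted for mCherry, which reports the Notch ligand Dll1. Before that sort, antibodies against CD45, CD31 and TER119 had been used to enrich tumor cells. Nothing in the labels ties a library to an animal of its own, so the p-values reflect how far these 4 libraries spread, and that spread may be technical. The title codes of the libraries split exactly as the treatment does, so a batch marked by them cannot be told apart from radiation. Pairs of values below give library 1 and then library 2 of a group.

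The libraries held 19931303 and 18903631 counts in irradiated 1 and irradiated 2, against 20817997 and 16811888 in unirradiated 1 and unirradiated 2. The irradiated pair lay far apart, with a biological coefficient of variation across genes of 39.2% against 5.93% in the unirradiated pair. All 10 epithelial markers were abundant, with summed levels of 12035 and 9838 CPM (counts scaled to the TMM-normalized library size) in the irradiated libraries against 11666 and 11196 CPM in the unirradiated ones. Summed markers of other cells were highest in irradiated 2, and in irradiated 1 they also exceeded both unirradiated libraries. The 8 endothelial markers summed to 42.4 and 595 CPM with radiation and 23.2 and 22.3 CPM without. The 10 macrophage markers summed to 82.9 and 667 CPM with radiation and 21.5 and 19.7 CPM without, the 12 lymphocyte markers to 30.1 and 197 CPM with radiation and 8.18 and 6.31 CPM without, and the 8 fibroblast markers to 787 and 5720 CPM with radiation and 587 and 603 CPM without. The 7 neutrophil markers summed to 11.3 and 96.6 CPM with radiation and 5.25 and 6.61 CPM without, and the 6 red cell markers to 5.85 and 35.1 CPM with radiation and 2.02 and 4.36 CPM without. Of these marker genes only Ly6g and Hba-a2 had no count in either unirradiated library.

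Division is driven by Cdk1 bound to cyclins A and B, which is switched on by Cdc25 phosphatases and helped by Polo and Aurora kinases. Microtubules and kinesin motors build the spindle, kinetochores hold chromosomes to it, and the spindle checkpoint holds back the anaphase-promoting complex (APC/C) until every chromosome is attached. The APC/C then marks cyclin B for destruction, the chromatids part, and a contractile ring cleaves the cell. Most of these genes are transcribed late in the cycle through promoter elements bound by the MuvB complex with B-Myb and Foxm1, and the p53 target p21, encoded by Cdkn1a, represses them through the same elements. In a tumor their mRNA levels are widely read as a measure of how many cells are dividing.

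The promoters of these genes shared short elements. RefSeq windows on GRCm38.p6, the mm10 build, ran from 250 bases before to 50 after a gene's start and were given for 34 of the 40 genes. No window was given for Ccna2, Cdc25c, Aurkb, Spc24, Kif20a and Tpx2. The cell cycle homology region (CHR), searched as TTTGAA or TTCGAA on either strand, was in the windows of 28 of the 34 genes (82.4%), against 21.7% of all 27025 genes with windows. CCAAT, the letters bound by NF-Y, was searched on either strand and was in 26 of the 34 (76.5%), against 41.1% of all genes. CHR letters and CCAAT occurred together in 24 of the 34 (70.6%), against 8.61% of all genes. In 26 of the 28 genes with CHR letters the nearest match began within 50 bases of the start, against 1653 of 5854 over all genes. The windows below are those of the 4 genes with the widest gap between the irradiated libraries, among the genes given in full for their p, level or gap or named in any case, that hold CHR letters and CCAAT. Ttk, added after its values were seen, holds them too and is not printed. Capitals mark TTTGAA or TTCGAA and CCAAT or, on the other strand, TTCAAA and ATTGG. The motor gene Kif4 is shown at chrX:100625815-100626114 on the plus strand and the hyaluronan receptor gene Hmmr at chr11:40733388-40733687 on the minus strand. The phosphatase gene Cdc25b is shown at chr2:131186698-131186997 on the plus strand and the kinase gene Cdk1 at chr10:69352863-69353162 on the minus strand, each 5′ to 3′ along the gene.
Kif4: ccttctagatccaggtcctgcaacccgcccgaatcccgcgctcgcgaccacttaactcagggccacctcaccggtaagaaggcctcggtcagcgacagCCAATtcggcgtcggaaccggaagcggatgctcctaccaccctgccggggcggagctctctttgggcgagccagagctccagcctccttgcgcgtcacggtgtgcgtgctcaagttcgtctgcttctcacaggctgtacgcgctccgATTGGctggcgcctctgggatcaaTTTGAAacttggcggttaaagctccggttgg
Hmmr: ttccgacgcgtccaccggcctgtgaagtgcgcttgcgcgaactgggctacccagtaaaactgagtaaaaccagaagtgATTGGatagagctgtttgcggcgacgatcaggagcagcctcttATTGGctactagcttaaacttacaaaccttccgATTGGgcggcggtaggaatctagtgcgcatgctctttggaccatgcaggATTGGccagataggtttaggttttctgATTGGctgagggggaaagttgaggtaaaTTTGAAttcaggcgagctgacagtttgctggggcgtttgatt
Cdc25b: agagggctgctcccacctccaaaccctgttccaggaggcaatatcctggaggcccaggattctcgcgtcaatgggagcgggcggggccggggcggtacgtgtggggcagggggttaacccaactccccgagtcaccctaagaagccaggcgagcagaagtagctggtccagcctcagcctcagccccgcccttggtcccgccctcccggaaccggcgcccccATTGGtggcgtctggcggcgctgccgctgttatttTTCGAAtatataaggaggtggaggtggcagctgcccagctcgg
Cdk1: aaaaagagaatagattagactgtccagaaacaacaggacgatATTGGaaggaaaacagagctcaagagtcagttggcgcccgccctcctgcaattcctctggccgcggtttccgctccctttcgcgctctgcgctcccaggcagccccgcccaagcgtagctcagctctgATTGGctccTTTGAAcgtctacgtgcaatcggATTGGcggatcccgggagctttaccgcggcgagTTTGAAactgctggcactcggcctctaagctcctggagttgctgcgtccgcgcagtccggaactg
Counted from the start used for each window, Cdk1 holds TTTGAA 71 and 15 bases before it. In Kif4, Hmmr and Cdc25b the CHR letters begin at base 20, 9 and 8 after it. These starts can differ from those of the deposited genes. By the deposited positions the nearer Cdk1 match lies inside the gene, which starts at 69352938, and the Hmmr match before its gene, which starts at 40733422. The Kif4 window lies wholly inside the deposited gene. The bases from the start on were found in a transcript of the gene for 22 of 36 windows. A match describes these letters and does not show that a factor binds there.

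The comparison asked how these genes differed in Dll1-positive tumor cells after targeted radiation. None of the 40 passed the test across all genes in either direction: the edgeR quasi-likelihood test with Benjamini-Hochberg adjustment called 0 of 15993 genes higher and 0 lower in irradiated libraries (0% each way), and the smallest adjusted p among the 40 was 0.514. All 40 passed the filter on low counts, with 47 to 1697 counts per library. At an unadjusted p under 0.05 the test held 2 of them (5.00%), Kif23 and Bub1b, against 9.25% of all tested genes, and by DESeq2 0 of the 40 had an unadjusted p under 0.05. After adjustment 0 of the 40 passed by DESeq2, which called 2.74% of all genes higher and 0.305% lower. The count was also 0 in edgeR without the filter, which called 4.86% higher and 0.381% lower, and with the replicate number as a block, which called 0.0125% higher and 0% lower. The median log2 fold change of the 40 was 0.094, beside 0.0040 over all tested genes. In 12 of the 40 genes the lower irradiated library exceeded the higher unirradiated one (30.0%), against 20.3% of all tested genes, and in 0 genes the irradiated pair lay wholly below, against 20.0%. This count is a description of 4 libraries, and the irradiated pair varied more than the unirradiated pair.

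The 40 genes sorted into a few patterns. The 12 that lay above in both irradiated libraries were Cdc25c, Bub1b, Ndc80, Nuf2, Kif2c, Kif11, Kif20a, Kif22, Kif23, Anln, Ect2 and Racgap1. In 19 others irradiated 1 was the lowest of the 4 libraries and irradiated 2 the highest, a pattern seen in 14.2% of all tested genes. These 19 were Ccna2, Ccnb1, Ccnb2, Cdk1, Cdc25b, Plk1, Aurka, Birc5, Bub1, Ttk, Mad2l1, Cdc20, Cenpa, Spc24, Kif4, Tpx2, Prc1, Hmmr and Mki67. In Aurkb, Cdca8, Ube2c, Spc25 and Top2a irradiated 2 was highest and irradiated 1 lay between the unirradiated libraries, and Nusap1, Cenpe, Cenpf and Kif20b had none of these patterns. Irradiated 2 was the highest library for 32 of the 40 genes, against 32.0% of all tested genes, and irradiated 1 the lowest for 20, against 34.2%.

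**Figure D1:**
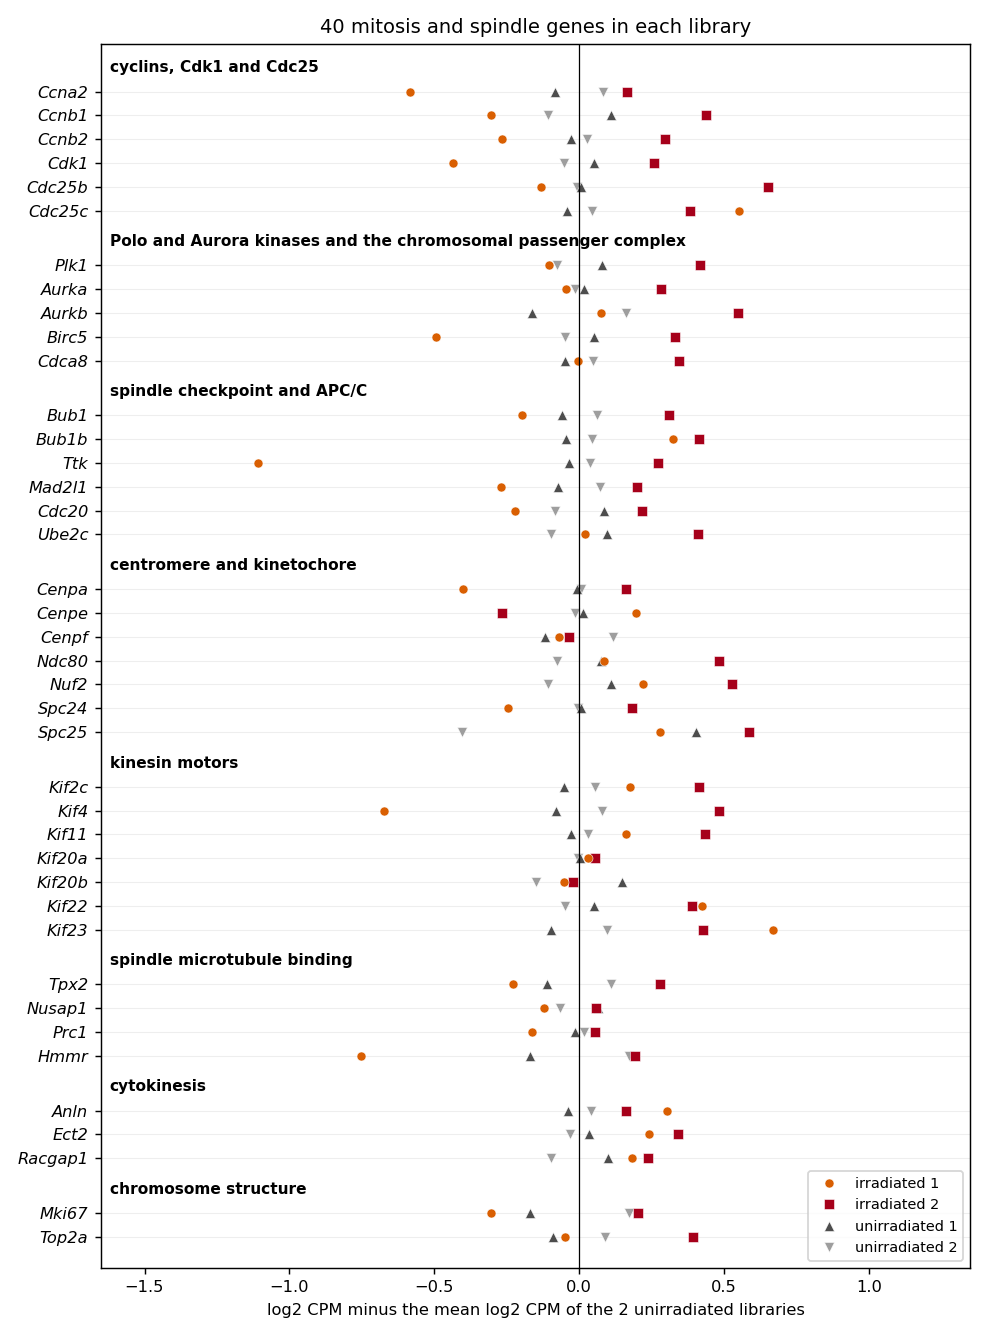
The log2 CPM of each of the 40 genes in each library, as the difference from the mean of the unirradiated libraries, with genes grouped by role down the page and 1 symbol per library. Irradiated 2 (squares) lies right of zero for 37 of the 40 genes, whereas irradiated 1 (circles) lies right of zero for 16, among them Kif23 at 0.67, and reaches -1.11 for Ttk.

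Most of the 40 genes were higher in irradiated 2 than in irradiated 1. Relative to the unirradiated mean, the median log2 difference of the 40 genes was -0.060 in irradiated 1 and 0.30 in irradiated 2, beside -0.0025 and 0.0041 over all tested genes. It was above zero for 16 of the 40 in irradiated 1, where 49.6% of all tested genes were, and for 37 of the 40 in irradiated 2, where 50.6% were. The median log2 difference of irradiated 2 minus irradiated 1 was 0.39, beside 0.057 over all tested genes. Irradiated 2 exceeded irradiated 1 in 35 of the 40, against 54.5% of all tested genes. The exceptions were Cdc25c, Cenpe, Kif22, Kif23 and Anln. The unirradiated libraries differed from each other by a median of 0.023. The median absolute log2 difference within the irradiated pair was 0.412 for the 40 genes and 0.33 for all tested genes, and within the unirradiated pair 0.126 and 0.134. A single library against another has no test, so these are descriptions. Summed over the 40 genes the level was 653 and 839 CPM with radiation and 682 and 704 CPM without. Irradiated 2 was also the library with the highest summed endothelial, blood cell and fibroblast markers, and their part in its values was not tested. These sums in irradiated 1 also lay above both unirradiated libraries. In bulk RNA, fewer cells of a type and less RNA per cell cannot be told apart.

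**Figure D2:**
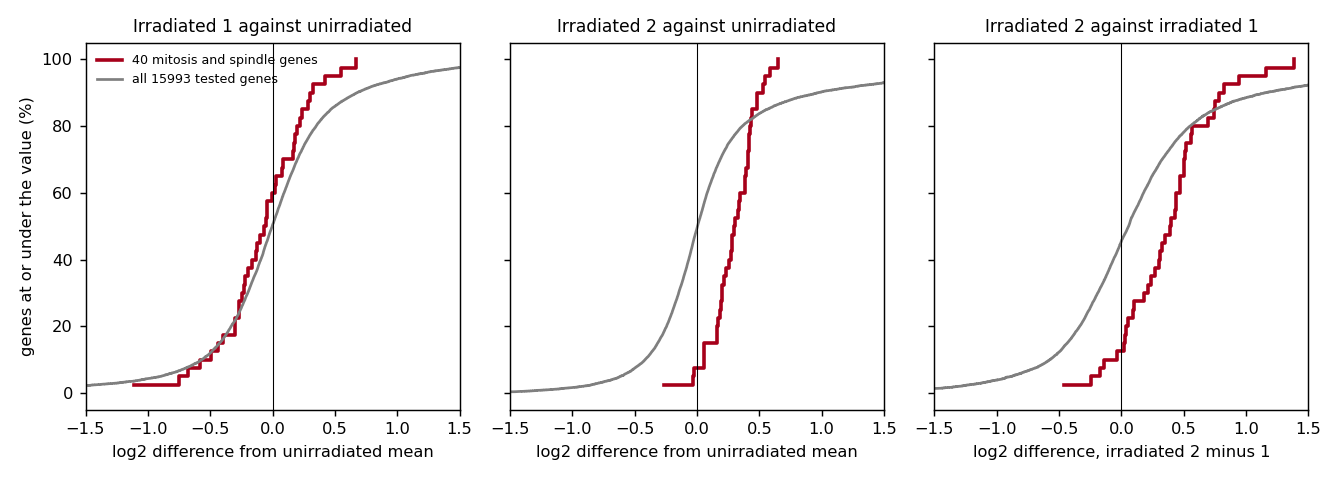
Cumulative shares of genes at or under a log2 difference for the 40 mitosis and spindle genes (red) and all 15993 tested genes (gray), in irradiated 1 and in irradiated 2 against the unirradiated mean, and between the irradiated libraries. The red curve lies close to the gray one in irradiated 1, with a median of -0.060, and to its right in irradiated 2, with a median of 0.30.

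Cyclins, Cdk1 and the Cdc25 phosphatases, which trigger entry into mitosis, showed the widest gap between the irradiated libraries of the 8 role groups, a median log2 difference of 0.72. Cdk1, the mitotic kinase, was at 14.6 and 23.7 CPM with radiation and 20.5 and 19.1 CPM without (log2 fold change -0.049, SE 0.26, edgeR adjusted p = 0.976). Ccnb1, which encodes cyclin B1, was at 15.7 and 26.3 CPM with radiation and 20.9 and 18.0 CPM without (log2 fold change 0.11, SE 0.28). The groups overlapped for each gene, since irradiated 1 was the lowest library and irradiated 2 the highest. Ccna2, the cyclin A2 gene, was at 14.7 and 24.7 CPM with radiation and 20.8 and 23.4 CPM without, and Ccnb2, the cyclin B2 gene, at 14.8 and 22.0 CPM with radiation and 17.5 and 18.2 CPM without. Cdc25b, a phosphatase that activates Cdk1 early, was at 7.72 and 13.4 CPM with radiation and 8.52 and 8.43 CPM without, so that irradiated 2 alone stood out. Cdc25c, the related phosphatase, had no such gap: it was at 8.78 and 7.78 CPM with radiation and 5.77 and 6.13 CPM without (log2 fold change 0.48, SE 0.25, edgeR adjusted p = 0.647). The groups did not overlap. Of the exon bases of Cdc25c 12.7% are shared with the antisense gene Gm3550 and of those of Ccna2 12.5% with the antisense gene Exosc9, and the library kit does not keep strand.

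Polo and Aurora kinases and the chromosomal passenger proteins, which correct faulty attachments and start cleavage, were near the unirradiated levels in irradiated 1, with a median log2 difference of -0.044, and at 0.34 in irradiated 2. Plk1, the Polo-like kinase gene, was at 12.5 and 17.9 CPM with radiation and 14.1 and 12.7 CPM without (log2 fold change 0.18, SE 0.24). Aurkb, the passenger kinase gene, was at 11.6 and 16.0 CPM with radiation and 9.77 and 12.3 CPM without (log2 fold change 0.33, SE 0.26), with irradiated 1 between the unirradiated libraries. Birc5, which encodes the passenger protein survivin, ran from the lowest library to the highest within the irradiated pair, at 11.2 and 20.0 CPM with radiation and 16.5 and 15.3 CPM without. Aurka and Cdca8, the genes of the spindle pole kinase and of borealin, differed from the unirradiated mean by -0.044 and -0.0025 on the log2 scale in irradiated 1 and by 0.28 and 0.34 in irradiated 2.

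Checkpoint and APC/C genes held the lowest single value of the 40. Ttk, the checkpoint kinase gene also called Mps1, was at 2.37 and 6.34 CPM with radiation and 5.10 and 5.37 CPM without, and was singled out after its values were seen. The irradiated values rest on 47 and 119 reads, and irradiated 2 exceeded irradiated 1 by 2.68-fold with an exact 95% binomial interval of 1.89 to 3.83. Such intervals cover counting error only, and may be too narrow even for that, since reads without molecular identifiers are not independent molecules. Bub1b, which encodes BubR1, a part of the checkpoint complex that inhibits the APC/C, had another pattern: it was at 25.6 and 27.2 CPM with radiation and 19.8 and 21.1 CPM without (log2 fold change 0.37, SE 0.14, edgeR adjusted p = 0.526). Its irradiated libraries lay close together and above both unirradiated ones. Cdc20, the APC/C activator gene, was at 32.7 and 44.4 CPM with radiation and 40.5 and 36.0 CPM without, with a log2 fold change of 0.010 (SE 0.18) whose sign turned under other settings. Bub1, Mad2l1 and Ube2c, which encode a checkpoint kinase, the checkpoint's APC/C inhibitor and an APC/C ubiquitin carrier, lay at 0.20 to 0.41 in irradiated 2 and at -0.27 to 0.019 in irradiated 1. Ube2c shares 22.8% of its exon bases with the antisense gene Tnnc2.

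Centromere and kinetochore genes did not follow 1 pattern. Nuf2 and Ndc80, whose proteins pair in the complex that grips microtubules, lay above in both irradiated libraries. Nuf2 was at 6.91 and 8.58 CPM with radiation and 6.40 and 5.48 CPM without (log2 fold change 0.38, SE 0.27, edgeR adjusted p = 0.753), and Ndc80 at 7.47 and 9.86 CPM with radiation and 7.41 and 6.66 CPM without. The margin of irradiated 1 over unirradiated 1 was small for Ndc80. The partners in the same complex did otherwise, with Spc24 at 8.93 and 12.0 CPM with radiation and 10.6 CPM in each library without and Spc25 at 7.36 and 9.12 CPM with radiation and 8.04 and 4.54 CPM without. Spc25 is the gene of the 40 for which the unirradiated libraries differed most. Cenpe, a kinetochore motor gene, went against the rest: it was at 18.0 and 13.1 CPM with radiation and 15.9 and 15.6 CPM without, so irradiated 1 was highest and irradiated 2 lowest. Cenpa, the gene of the centromeric histone, was at -0.40 in irradiated 1 and 0.16 in irradiated 2 on the log2 difference scale, and Cenpf, a kinetochore gene, at -0.068 and -0.034.

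Kinesin motor genes contributed 5 of the 12 genes that lay above in both irradiated libraries. These were 5 of the 7 motor genes, against 20.3% of all tested genes. Kif23, the motor of the centralspindlin complex that bundles the midzone, had the smallest p of the 40. It was at 17.2 and 14.5 CPM with radiation and 10.1 and 11.5 CPM without, so the groups did not overlap. Its log2 fold change was 0.55 (SE 0.20, edgeR adjusted p = 0.514). Kif22, a chromosome arm motor gene, was at 18.3 and 17.9 CPM with radiation and 14.1 and 13.2 CPM without (log2 fold change 0.41, SE 0.16, edgeR adjusted p = 0.543), with each pair closely spaced. Kif11, the motor gene that pushes spindle poles apart, was at 20.6 and 24.8 CPM with radiation and 18.0 and 18.8 CPM without, and Kif2c, a microtubule depolymerase gene, at 9.43 and 11.1 CPM with radiation and 8.04 and 8.67 CPM without. Kif20a, a cleavage motor gene, counted among the 12 by a small margin, at 0.029 and 0.053 above the unirradiated mean on the log2 scale. It was at 12.1 and 12.3 CPM with radiation and 11.8 CPM in each library without, and 29.3% of its exon bases are shared with the antisense gene Cdc23. Kif4, a chromokinesin gene, varied most of the motor genes, at 5.35 and 12.0 CPM with radiation and 8.13 and 9.08 CPM without. Its irradiated libraries differed 2.25-fold, with an exact 95% binomial interval of 1.78 to 2.87, and it shares 15.1% of its exon bases with the antisense gene Pdzd11. Kif20b, another kinesin gene, differed from the unirradiated mean by -0.051 in irradiated 1 and -0.022 in irradiated 2 on the log2 scale.

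The 3 cytokinesis genes all lay above in both irradiated libraries, by small amounts, where 20.3% of all tested genes lay above. Anln, which encodes the ring scaffold anillin, was at 27.2 and 24.6 CPM with radiation and 21.4 and 22.6 CPM without (log2 fold change 0.23, SE 0.14, edgeR adjusted p = 0.695). Ect2, the gene of the exchange factor that activates RhoA for cleavage, had 259 and 263 reads in the irradiated libraries and 235 and 183 reads in the unirradiated ones, and lay 0.24 and 0.34 above the unirradiated mean on the log2 CPM scale. Racgap1, whose protein partners Kif23 in centralspindlin and recruits Ect2, was at 32.2 and 33.4 CPM with radiation and 30.4 and 26.5 CPM without. Summed, the 3 genes were at 72.4 and 72.1 CPM with radiation and 63.1 and 59.9 CPM without, so the irradiated libraries were level in sum. The median log2 difference between the irradiated libraries was 0.054 for the cytokinesis genes and 0.029 for the kinesin motors. Opposite signs offset each other in this median, so it does not rank closeness. Single genes ran from -0.14 for Anln to 0.10 for Ect2 in cytokinesis, and from -0.24 for Kif23 to 1.16 for Kif4 among the motors.

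All 6 genes of spindle microtubule binding and chromosome structure were lower in irradiated 1 than in irradiated 2. Hmmr, whose protein binds spindle microtubules as well as hyaluronan, was at 8.07 and 15.6 CPM with radiation and 12.1 and 15.4 CPM without (log2 fold change -0.22, SE 0.36). Irradiated 1 was the lowest library for Hmmr, and the unirradiated libraries also differed. Tpx2, which encodes the activator of Aurora A, was at 24.0 and 34.2 CPM with radiation and 26.1 and 30.4 CPM without. Prc1 and Nusap1, genes of microtubule bundling proteins, lay at -0.16 and -0.12 in irradiated 1 and at 0.053 and 0.056 in irradiated 2. Mki67, the gene of the proliferation marker Ki-67, was at 63.8 and 90.5 CPM with radiation and 69.9 and 88.6 CPM without (log2 fold change -0.039, SE 0.21, edgeR adjusted p = 0.977). The unirradiated libraries also differed for Mki67, and irradiated 2 lay only just above unirradiated 2. Top2a, which encodes the topoisomerase that untangles chromosomes, was at 45.6 and 61.9 CPM with radiation and 44.3 and 50.1 CPM without (log2 fold change 0.19, SE 0.18). Prc1 shares 11.1% of its exon bases with the antisense gene Rccd1.

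**Figure D3:**
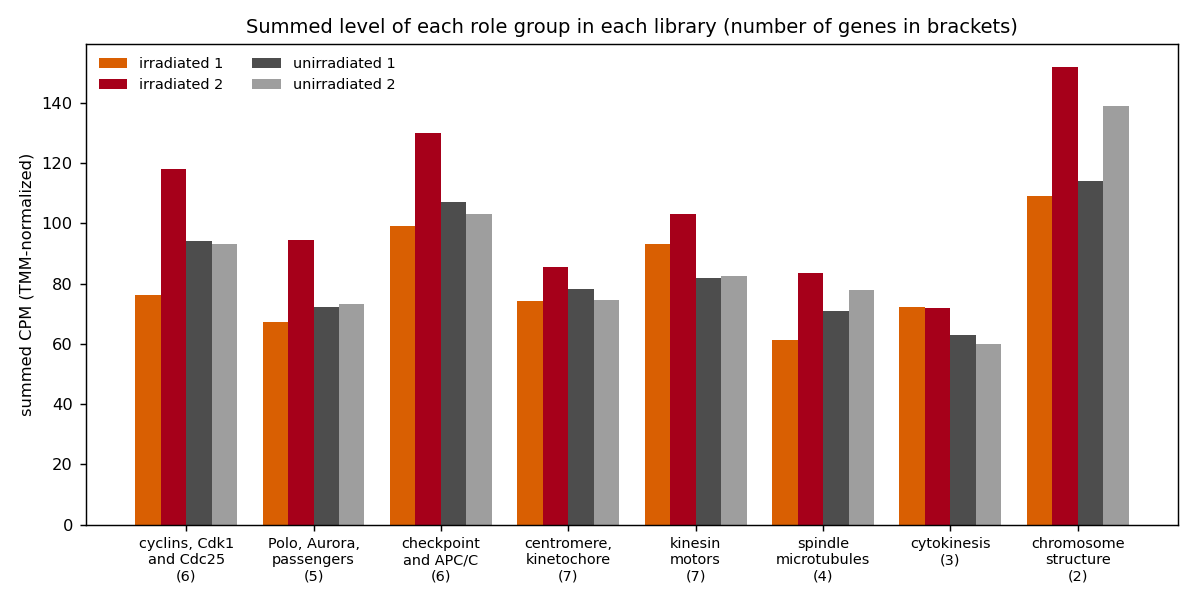
Bars give the summed TMM-normalized CPM of the genes of each role group in each of the 4 libraries, from 0, with the number of genes in brackets. Irradiated 2 is the highest bar in 7 of the 8 groups, and in the cytokinesis group the irradiated libraries are level at 72.4 and 72.1 CPM, above the unirradiated ones at 63.1 and 59.9 CPM.

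The levels of the genes can be compared per length only roughly. The length used joins the exons of annotated transcripts and need not be that of the mRNAs present. Expressed as CPM per kilobase of the deposited gene length, Cdc20 was highest, at 20.6 ± 4.42 in irradiated and 20.5 ± 1.70 in unirradiated libraries (SD, n = 2 each). Ccnb2 followed at 12.0 ± 3.29 with radiation and 11.7 ± 0.327 without, Ube2c at 9.70 ± 1.86 with and 8.29 ± 0.786 without, and Mki67 at 7.66 ± 1.88 with and 7.87 ± 1.32 without. Ube2c and Mki67 were neighbours in this order that did not differ beyond their spread. At the low end were Cenpf at 0.758 ± 0.0130 with radiation and 0.788 ± 0.0911 without, Nuf2 at 1.22 ± 0.186 with and 0.937 ± 0.102 without, and Ttk at 0.886 ± 0.571 with and 1.06 ± 0.0383 without. The deposited length equals the exon bases of all GENCODE M21 transcripts together for 37 of the 40 genes. It was shorter for Cdc25c (1941 against 4919 bases), Kif20a (3796 against 4338) and Kif11 (4819 against 7461). The shares of exon bases given for Cdc25c and Kif20a are of the longer GENCODE M21 set. In mm10 Kif23 (ENSMUSG00000032254) lies on chromosome 9 from 61915905 to 61946774, Bub1b (ENSMUSG00000040084) on chromosome 2 from 118598211 to 118641591, Ttk (ENSMUSG00000038379) on chromosome 9 from 83834689 to 83872389 and Kif4 (ENSMUSG00000034311) on chromosome X from 100625737 to 100727214.

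Set alone against the unirradiated pair, each irradiated library gave calls of its own. These fits assume that the lone irradiated library varies like the unirradiated pair, while the coefficient of variation was 39.2% in the irradiated pair and 5.93% in the unirradiated pair. Without irradiated 1, edgeR with Benjamini-Hochberg adjustment called 7 of the 40 genes higher (17.5%), against 15.9% of all tested genes, and 0 lower, against 7.95%. The 7 were Ccnb1, Cdc25b, Aurkb, Bub1b, Ube2c, Kif11 and Top2a, with adjusted p from 0.00334 for Top2a to 0.0167 for Ube2c. Their share was close to that of all genes. Without irradiated 2, it called 3 higher (7.50%), Cdc25c, Kif22 and Kif23, against 11.9% of all tested genes, and 8 lower (20.0%), against 13.9%. The 8 were Ccna2, Cdk1, Birc5, Ttk, Cenpa, Kif4, Hmmr and Mki67, with Hmmr at a log2 fold change of -0.78 (edgeR adjusted p = 0.000349) and Ttk at -1.15. Kif23 had a log2 fold change of 0.66 without irradiated 2 (edgeR adjusted p = 0.000709) and 0.42 without irradiated 1 (adjusted p = 0.0686), and Mki67 -0.32 without irradiated 2 and 0.18 without irradiated 1.

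Within the irradiated pair, counting error as given by binomial intervals was smaller than many of the differences. The exact 95% binomial interval of the ratio of irradiated 2 to irradiated 1 excluded equality for 27 of the 40 genes (67.5%), against 62.1% of all tested genes. That of unirradiated 2 to unirradiated 1 did so for 10 (25.0%), against 25.1%. Both shares were near those of all genes. For Cdk1 the ratio within the irradiated pair was 1.62 (1.40 to 1.89), for Hmmr 1.94 (1.59 to 2.36) and for Mki67 1.42 (1.32 to 1.53). For Cenpe it was 0.725 (0.614 to 0.856). For Bub1b, Kif22 and Racgap1 it was 1.07 (0.940 to 1.21), 0.975 (0.838 to 1.13) and 1.04 (0.929 to 1.16), so no difference was detectable there at this depth.

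The 34 genes with windows were also described by their promoter letters. Of the 24 genes with CHR letters and CCAAT, 22 were higher in irradiated 2 than in irradiated 1 (91.7%) and 6 lay above in both irradiated libraries (25.0%). Of the 10 genes with windows lacking that combination, 8 were higher in irradiated 2 (80.0%) and 4 lay above in both (40.0%). Over all tested genes 54.5% were higher in irradiated 2 and 20.3% lay above in both. The median log2 difference between the irradiated libraries was 0.42 with the combination and 0.28 without it. These splits are descriptions with no test.

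Other cell division genes had a median difference between the irradiated libraries of 0.13, beside 0.39 for the 40. Of 198 further genes on 7 lists, all tested, 0 were called higher and 0 lower by edgeR, and their median stood at -0.022 in irradiated 1 and at 0.12 in irradiated 2. In 53 (26.8%) both irradiated libraries lay above and in 26 (13.1%) below, against 20.3% above and 20.0% below over all tested genes. Of the 23 genes of cell cycle transcription control 12 lay above (52.2%) and 3 below (13.0%), against 20.3% above and 20.0% below over all tested genes. Foxm1, an activator of mitotic genes, was at 18.1 and 20.3 CPM with radiation and 15.6 and 17.8 CPM without, and Mybl2, which encodes B-Myb, at 7.77 and 8.21 CPM with radiation and 7.70 and 6.25 CPM without. Tfdp1, the E2F partner gene, was at 65.4 and 68.1 CPM with radiation and 57.7 and 56.4 CPM without, and the retinoblastoma gene Rb1 at 128 and 109 CPM with radiation and 147 and 152 CPM without, below both unirradiated libraries (edgeR adjusted p = 0.516).

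Among 27 genes of mitotic entry and exit control 4 lay above (14.8%) and 6 below (22.2%), near the 20.3% and 20.0% of all tested genes. Cdkn1a was at 237 and 182 CPM with radiation and 161 and 157 CPM without (log2 fold change 0.40, SE 0.16, edgeR adjusted p = 0.540), and Plk2, a p53-responsive Polo-like kinase gene, at 582 and 475 CPM with radiation and 374 and 378 CPM without. Both were higher in irradiated 1, the library with the lower level of 35 of the 40 genes, Cdk1, Ccna2 and Hmmr among them. Cdc25c, Cenpe, Kif22, Kif23 and Anln were instead higher in irradiated 1. Cdkn1a in irradiated 2 also exceeded both unirradiated libraries, and the part of Cdkn1a in the levels of the 40 genes was not tested. Of 34 other kinetochore and checkpoint genes 13 lay above (38.2%) and 1 below (2.94%), against 20.3% and 20.0%. Incenp, the scaffold gene of the passenger complex, was at 44.8 and 41.9 CPM with radiation and 33.7 and 38.3 CPM without, and Mis18a, a gene of centromere licensing, at 9.74 and 9.92 CPM with radiation and 6.11 and 7.55 CPM without.

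Of 36 other spindle and cytokinesis genes 11 lay above (30.6%) and 4 below (11.1%), against 20.3% above and 20.0% below over all tested genes. Aspm, a spindle pole gene, had the largest log2 fold change of those named from these lists, 0.95 (SE 0.30, edgeR adjusted p = 0.496), at 8.17 and 8.42 CPM with radiation and 3.61 and 5.01 CPM without. Tacc3, a spindle stabilizer gene, was at 35.1 and 30.5 CPM with radiation and 26.3 and 25.5 CPM without. Of the 19 APC/C genes 3 lay above (15.8%) and 7 below (36.8%), and of the 20 condensin and cohesin genes 2 lay above and 3 below, beside the same 20.3% and 20.0%. Pttg1, which encodes the separase inhibitor securin, was at 18.2 and 18.0 CPM with radiation and 15.9 and 12.9 CPM without, and the APC/C subunit gene Cdc16 at 62.5 and 60.0 CPM with radiation and 74.9 and 66.6 CPM without. The cohesin genes Stag1 and Stag2 were at 48.8 and 60.6 CPM with radiation and 62.9 and 67.7 CPM without, and at 67.3 and 74.7 CPM with radiation and 80.2 and 80.7 CPM without. Of 39 DNA replication and G1/S genes 8 lay above (20.5%, beside 20.3% of all genes) and 2 below (5.13%, beside 20.0%). Of these 39, 34 were higher in irradiated 2 than in irradiated 1 (87.2%), against 54.5% of all tested genes. Their median log2 difference was -0.077 for irradiated 1 and 0.23 for irradiated 2. Among them Pole, a polymerase gene, was at 11.9 and 10.2 CPM with radiation and 7.03 and 7.90 CPM without and the helicase gene Mcm3 at 29.7 and 39.2 CPM with radiation and 26.1 CPM in each library without.

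**Figure D4:**
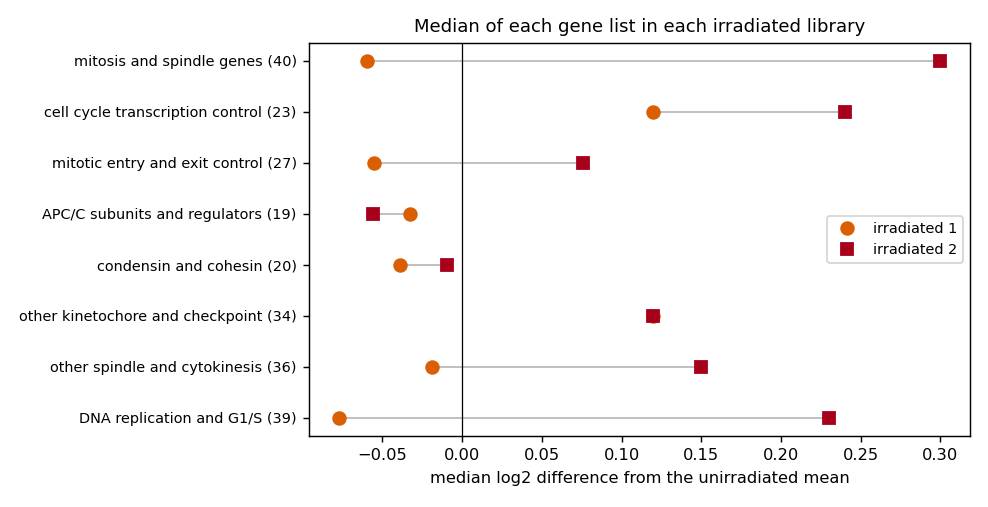
Median log2 difference from the unirradiated mean in irradiated 1 (circles) and irradiated 2 (squares) for the 40 mitosis and spindle genes and 7 lists of other cell division genes, with the number of tested genes in brackets. The 40 genes, at -0.060 and 0.30, and the DNA replication and G1/S genes, at -0.077 and 0.23, show the widest gaps, and for the other kinetochore and checkpoint genes the symbols coincide at 0.12.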

How the data were processed

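Poly(A) RNA of sorted Dll1-mCherry-positive tumor cells was sequenced in 2 irradiated and 2 unirradiated libraries with a kit that does not keep strand. The values deposited by the authors are raw read counts for each gene, beside gene lengths in bases. The submitters' processing notes name STAR 2.5, HTSeq 0.6.1, DESeq2 and mm10, and neither the counting options nor the annotation release is given in the sources used here. The table of all 4 libraries matched the 3 single tables at all 54532 genes. Of these IDs 54495 were found in GENCODE M21, 98.2% at the same position, and exon sharing was computed there. Treatment labels gave the groups and titles the replicate numbers.

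The count test was edgeR 4.0.16 under R 4.3.3 (filterByExpr with minimum count 10 and minimum total 15, TMM, two-sided quasi-likelihood test, Benjamini-Hochberg adjustment over 15993 genes, threshold 0.05). The log2 CPM used a prior count of 2. Intervals of ratios between 2 libraries are Clopper-Pearson, at 95%. The edgeR steps alone were run on simulated counts that gave both groups the same spread. The real pairs differed in their coefficient of variation (39.2% irradiated, 5.93% unirradiated). That run therefore does not show how the test does on these data. Alternatives were other scalings and filters, a block for replicate number, leaving out single libraries, DESeq2 1.42.0, limma-voom (limma 3.58.1) with and without group weights, and a threshold of 0.1. A search of protein letters was not run. "Above" and "below" mean that the irradiated pair lies wholly on that side of the unirradiated pair.

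Genes given in full are those above or below, in each role group those with the smallest p and the highest CPM per kilobase, the 5 most negative and 5 most positive in irradiated 2 minus irradiated 1 with a mean of at least 5 CPM, and Mki67, Top2a, Ccnb1 and Cdk1. From each further list the 2 with the smallest p, Foxm1, Mybl2 and Cdkn1a are named. Members, lists and tests were chosen with earlier results of these data known.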

Additional observations from a re-analysis of the deposited data

How the results depend on the processing

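The count of 0 genes called each way over all genes became 1338 higher and 105 lower with no filter, and 450 and 50 by DESeq2. With the replicate number as a replicate block it was 2 higher and 0 lower. Leaving out a library in turn gave 0 to 2713 higher and 0 to 2355 lower. Of the 40 genes, 0 were called in any of these settings, except when leaving out an irradiated library (0 to 7 higher, 0 to 8 lower). The labels do not say that the numbers pair the libraries, and the deviations of same-numbered libraries correlated at -0.099 over 15993 genes. Leaving out a library in turn gave 12 to 36 genes above and 1 to 20 below. Without irradiated 1, 36 were above (90.0%), against 40.3% of all tested genes. Without irradiated 2, 12 were above (30.0%), against 41.0% of all tested genes, and 20 of 40 were below, against 42.9%. The share above was then under that of all genes, whereas with all 4 libraries it was over it (30.0% against 20.3%). Without unirradiated 1 or unirradiated 2, 15 were above (37.5%), against 28.8% and 29.6% of all tested genes. With no filter 10 of the 40 were above, and Ndc80 and Kif20a no longer were. The median log2 fold change of the 40 was -0.081 without irradiated 2 and 0.29 without irradiated 1. With DESeq2 size factors the median in irradiated 1 was -0.037 and the median of irradiated 2 minus irradiated 1 was 0.36, and with upper-quartile scaling the median in irradiated 2 was 0.27 and that of irradiated 2 minus irradiated 1 was 0.34. A scaling shifts all genes of a library together. The median over all tested genes in irradiated 1 moved from -0.003 to 0.02 with DESeq2 size factors. That of irradiated 2 minus irradiated 1 moved from 0.057 to 0.007 with upper-quartile scaling. Irradiated 2 exceeded irradiated 1 in 32 of the 40 genes with either scaling, against 35 in the main setting. The cause of the shifts on leaving out a library was not tested. Of 377 values of named genes under alternatives 330 kept their direction and side of the threshold, and 32 changed sign, 22 of them when a library was left out. All 16 newly called values came from leaving out a library, and 1 of them, Kif4 without irradiated 2, also changed sign. Cdc20 was at -0.0039 with upper-quartile scaling, -0.0025 with library size alone, -0.0011 with no filter, -0.0034 with the replicate block, -0.010 with limma-voom and -0.011 with group weights. Kif4 was at -0.0050 with upper-quartile scaling, -0.094 with the replicate block and -0.11 with limma-voom with or without group weights. Leaving out a library in turn, the log2 fold change ran from -0.60 to 0.15 for Ccna2, -0.33 to 0.42 for Ccnb1, -0.28 to 0.28 for Ccnb2, -0.45 to 0.24 for Cdk1, -0.15 to 0.64 for Cdc25b and -0.12 to 0.40 for Plk1. It ran from -0.51 to 0.31 for Birc5, -1.15 to 0.26 for Ttk, -0.24 to 0.20 for Cdc20, -0.28 to 0.18 for Cenpe, -0.26 to 0.17 for Spc24 and -0.70 to 0.47 for Kif4. It ran from -0.24 to 0.27 for Tpx2, -0.78 to 0.18 for Hmmr, -0.32 to 0.18 for Mki67 and -0.062 to 0.38 for Top2a. Counting depth limits Ttk most among the 40, with 47 reads in irradiated 1.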
